A study of Homo sapiens with 4 samples.

Results

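The genes described are 106 human genes whose symbols start with ZNF and a digit, of 3200 genes in a deposited expression table of K562 cells. They are all ZNF rows by symbol except 10 genes of 1 chromosome 19 cluster (ZNF253, ZNF93, ZNF90, ZNF486, ZNF737, ZNF626, ZNF66, ZNF85, ZNF738 and ZNF493), which were left out with earlier results of these data known. K562 is an established human leukaemia line whose BCR-ABL fusion kinase is the target of imatinib. Poly-A RNA was sequenced in 4 libraries, 1 per group. R-Exo cells are K562 cells that received vesicles named R-Exo for 48 h, and resistant cells are the imatinib-resistant K562/IMR line with the treatment label NC. S-Exo cells are K562 cells that received vesicles named S-Exo for 48 h and are the control that the series description names for R-Exo. Parental cells are K562 labelled as wild type, also with the treatment label NC. The labels do not spell out NC, and it was read as no vesicles. The names were taken to stand for exosomes (small vesicles that cells shed) of resistant and of sensitive cells. Counting those 10 as well, the table held 116 (22.6%) of the 514 coding ZNF genes of GENCODE 29, and 11.5% of all 19922 coding genes. The labels do not say how the resistant line was derived, whether it is 1 clone, or whether imatinib was present during culture.

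ZNF genes encode proteins built around arrays of zinc fingers of the C2H2 type, loops held by a zinc ion that read DNA sequence. Many of them also carry a KRAB domain at the start of the protein. KRAB recruits the co-repressor TRIM28 (KAP1), which brings in the histone H3 lysine 9 methyltransferase SETDB1 and silences the bound DNA, often a transposable element. Large tandem clusters of these genes lie on human chromosome 19, and most members are transcribed at low levels.

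With 1 library per group, no difference had a replicate check, no test was possible and no p-value is given. Values are FPKM, fragments scaled to gene length and to the fragments of the library, and the depth of the libraries is unknown. The 3200 genes had been selected by the authors as differentially expressed by a rule not given in the sources used here, so shares below are set beside the same share of the whole table. The correlation of log2(FPKM + 1) across all 3200 genes (Pearson's r) was 0.974 for R-Exo with resistant and 0.977 for S-Exo with parental, and lay between 0.729 and 0.736 for the other 4 pairs. ABCB1, the drug efflux pump, had 677 FPKM in R-Exo and 778 FPKM in resistant cells, against 0.0985 FPKM in S-Exo and 0.222 FPKM in parental cells. The R-Exo library thus stood beside the resistant library and apart from both other libraries of K562, although its label gives K562 as its cell line. Whether it holds treated K562 cells as labelled was not tested. The comparison of resistant with parental cells does not use it, and is given first for that reason. The erythroid and progenitor genes LMO2, HBZ and TFRC, which K562 cells are known to express, lay above 10 FPKM in every library. Of 14 markers of other cell types, 3 were in the table, and the T cell gene CD3D was the highest of them, with 7.27 and 8.85 FPKM in R-Exo and resistant cells, against 0.677 and 0.410 FPKM in S-Exo and parental cells. The collagen genes COL1A1 and COL1A2 lay under 1 FPKM in every library. The part of these markers in the results below was not tested. In bulk RNA, fewer cells expressing a gene and less RNA of it per cell cannot be told apart.

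Most of the 106 ZNF genes had less RNA in resistant than in parental cells, while the table as a whole leaned the other way. Their FPKM summed to 134 in R-Exo and 146 in resistant cells, against 247 in S-Exo and 246 in parental cells. The median member had 0.486 FPKM in R-Exo and 0.599 FPKM in resistant cells, against 1.32 FPKM in S-Exo and 1.43 FPKM in parental cells. The median of all 3200 genes was 1.10 and 1.21 FPKM in R-Exo and resistant cells, against 1.01 and 0.946 FPKM in S-Exo and parental cells. In resistant cells 40 members reached 1 FPKM, against 64 in parental cells, and in R-Exo cells 39 did, against 66 in S-Exo cells. For 82 members (77.4%), both the R-Exo and the resistant value lay below both the S-Exo and the parental value, against 39.2% of the table. For 14 members (13.2%), both lay above, against 47.3% of the table. The remaining 10 members had overlapping pairs of values.

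Differences were taken on log2(FPKM + 1), for genes that reached 1 FPKM in either library of the pair, and a gene was counted as higher or lower at a log2 difference of 1 or more. In resistant against parental cells 70 members were compared. Of these 22 (31.4%) were lower, against 18.1% of the 2151 genes of the table that were compared. Only 3 (4.29%) were higher, ZNF215, ZNF521 and ZNF844, against 28% of the table. The median difference was -0.75 for the members and 0.42 for the table, on log2(FPKM + 1). With each difference taken relative to that table median, 41 of the 70 members were lower, against 35.1% of the table, and ZNF215 alone was higher, against 12.8%. The median absolute difference was 0.85 for the members and 0.95 for the table on the same scale. Members just inside and just outside the limit were ZNF527, at -1.0, and ZNF468, at -0.99 on log2(FPKM + 1).

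**Figure D1:**
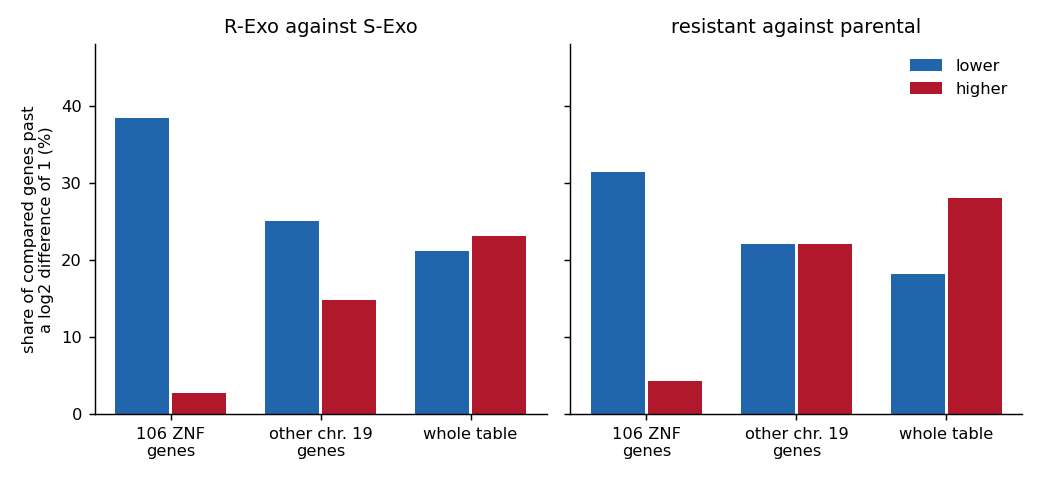
Share of compared genes (%) past a log2(FPKM + 1) difference of 1, lower in blue and higher in red, for the ZNF genes, the other chromosome 19 genes of the table (no zinc finger symbols) and the whole table, in R-Exo against S-Exo (left) and resistant against parental (right). Among the ZNF genes 38.4% and 31.4% were lower, against 21.2% and 18.1% of the table.

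The lowest member was ZNF736, a KRAB zinc finger gene on chromosome 7. It had 0.498 FPKM in R-Exo and 0.423 FPKM in resistant cells, against 4.79 FPKM in S-Exo and 5.54 FPKM in parental cells. This was 13.1-fold lower in resistant than in parental cells, a difference of -2.20 on log2(FPKM + 1). ZNF91, a primate-specific repressor of SVA retrotransposons, had 0.927 FPKM in R-Exo and 0.876 FPKM in resistant cells, against 7.35 FPKM in S-Exo and 6.51 FPKM in parental cells. It was 7.43-fold lower in resistant than in parental cells. ZNF257, which lies in the same chromosome 19 cluster, had 1.24 FPKM in R-Exo and 1.17 FPKM in resistant cells, against 7.86 FPKM in S-Exo and 7.37 FPKM in parental cells. For all 3 genes the resistant and R-Exo values lay close together and far below the S-Exo and parental values. ZNF695, on chromosome 1, had 0.777 FPKM in R-Exo and 0.734 FPKM in resistant cells, against 4.20 FPKM in S-Exo and 4.82 FPKM in parental cells. ZNF726 was spread more widely, with 0.840 FPKM in R-Exo and 2.06 FPKM in resistant cells, against 7.54 FPKM in S-Exo and 8.50 FPKM in parental cells. ZNF529 kept some RNA, with 1.36 FPKM in R-Exo and 1.40 FPKM in resistant cells, against 5.07 FPKM in S-Exo and 5.59 FPKM in parental cells. ZNF823 lay at the upper end of the 15 lowest members, with 2.52 FPKM in R-Exo and 2.0 FPKM in resistant cells, against 4.83 FPKM in S-Exo and 5.72 FPKM in parental cells.

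A second kind of lower gene was close to absent in R-Exo and resistant cells. Of 59 members with at least 1 FPKM in both S-Exo and parental cells, 24 (40.7%) lay under 1 FPKM in both R-Exo and resistant cells, against 20.8% of 1437 such genes of the table. Under 0.1 FPKM in both lay 8 of the 59 (13.6%), against 3.97% of the table. The 8 were ZNF550, ZNF730, ZNF880, ZNF585B, ZNF569, ZNF433, ZNF345 and ZNF676, all on chromosome 19. ZNF550 was listed at 0 in R-Exo and had 0.0115 FPKM in resistant cells, against 2.76 FPKM in S-Exo and 2.78 FPKM in parental cells. ZNF569 was listed at 0 in R-Exo and resistant cells and had 2.17 FPKM in S-Exo and 2.37 FPKM in parental cells. ZNF676 was also listed at 0 in R-Exo and resistant cells, against 1.82 FPKM in S-Exo and 1.5 FPKM in parental cells. These genes had modest levels in S-Exo and parental cells, so the differences amounted to few FPKM. ZNF880 was listed at 0 in R-Exo and resistant cells and had 2.16 FPKM in S-Exo and 1.21 FPKM in parental cells. ZNF433 had 0.0819 FPKM in R-Exo and 0.0860 FPKM in resistant cells, against 2.09 FPKM in S-Exo and 2.53 FPKM in parental cells. ZNF345 had 0.0568 FPKM in R-Exo and 0.0138 FPKM in resistant cells, against 1.79 FPKM in S-Exo and 1.87 FPKM in parental cells. At such levels the step that 1 read adds is not known, and a value listed at 0 is not shown to be absence. Altogether 9 members (8.49%) were listed at 0 in both R-Exo and resistant cells (ZNF155, ZNF880, ZNF569, ZNF572, ZNF69, ZNF790, ZNF502, ZNF570 and ZNF676), against 2.09% of the table. In both S-Exo and parental cells 2 members (1.89%) were listed at 0, ZNF462 and ZNF234, against 3.06% of the table.

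**Figure D2:**
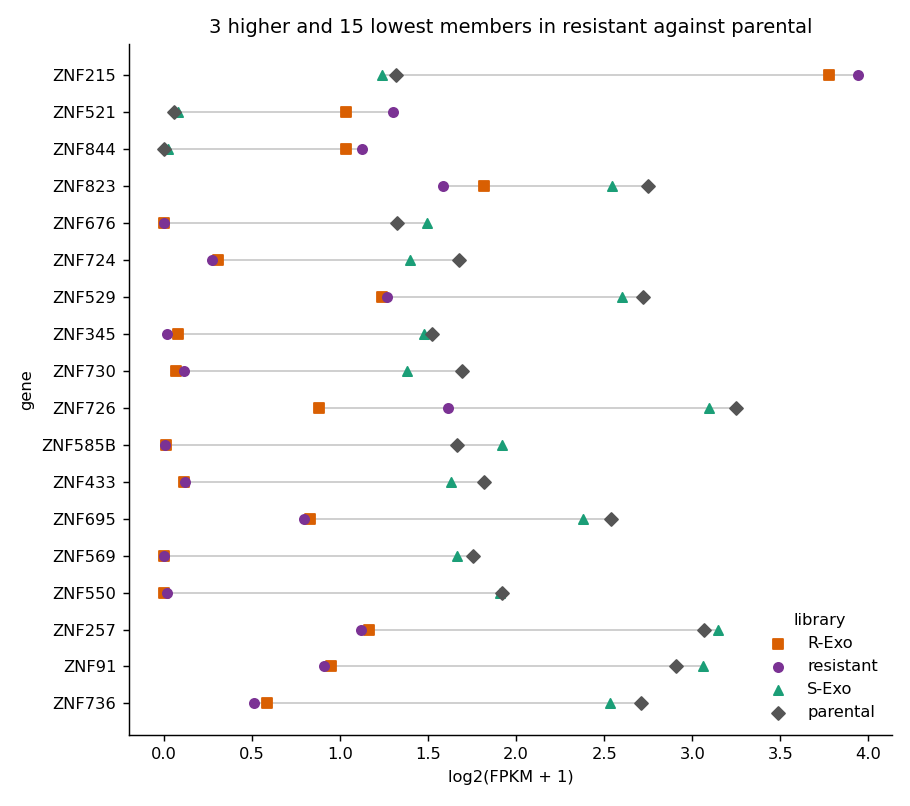
Level of the 3 higher and the 15 lowest ZNF genes of resistant against parental cells in each of the 4 libraries, as log2(FPKM + 1), with a grey line over each gene's range. In all 18 genes the R-Exo and resistant points lay on one side and the S-Exo and parental points on the other.

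The higher members were few, and ZNF215 had the largest difference of all 106 in either direction. ZNF215 encodes a zinc finger protein of the imprinted region of chromosome 11p15. It had 12.7 FPKM in R-Exo and 14.3 FPKM in resistant cells, against 1.36 FPKM in S-Exo and 1.5 FPKM in parental cells. The value in resistant cells was 9.58-fold that in parental cells, a difference of 2.62 on log2(FPKM + 1). Without ZNF215 the members summed to 121 FPKM in R-Exo and 132 FPKM in resistant cells, against 245 FPKM in both S-Exo and parental cells. ZNF521 encodes a co-factor of haematopoietic progenitors that binds the NuRD co-repressor complex. It had 1.05 FPKM in R-Exo and 1.46 FPKM in resistant cells, against 0.0579 FPKM in S-Exo and 0.0386 FPKM in parental cells. ZNF844, a KRAB gene of chromosome 19, had 1.05 FPKM in R-Exo and 1.18 FPKM in resistant cells, against 0.0160 FPKM in S-Exo cells, with a listed 0 in parental cells. The calls of ZNF521 and ZNF844 rested on values near 1 FPKM, and their differences of 1.24 and 1.12 in resistant against parental cells dropped to 0.82 and 0.70 when taken relative to the table's median. ZNF544 lay just under the limit at a much higher level, with 17.3 FPKM in R-Exo and 16.8 FPKM in resistant cells, against 8.47 FPKM in S-Exo and 8.53 FPKM in parental cells. It was 1.97-fold higher in resistant than in parental cells. ZNF165, a cancer-testis gene, had 1.20 FPKM in R-Exo and 1.65 FPKM in resistant cells, against 0.813 FPKM in S-Exo and 0.720 FPKM in parental cells. ZNF497 had 1.47 FPKM in R-Exo and 2.26 FPKM in resistant cells, against 0.992 FPKM in S-Exo and 0.804 FPKM in parental cells. ZNF641 had 3.77 FPKM in R-Exo and 2.53 FPKM in resistant cells, against 1.65 FPKM in S-Exo and 1.42 FPKM in parental cells. In ZNF165, ZNF497 and ZNF641 both R-Exo and resistant values exceeded both others without reaching a difference of 1. The other 7 members with that order were ZNF462, ZNF234, ZNF528, ZNF438, ZNF846, ZNF460 and ZNF784, all within the limit or too low to be compared.

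Promoter sequence was read from RefSeq (GRCh38.p14) as 250 bases before to 50 bases after an annotated start, 300 bases in all. Of the 106 members 92 matched by symbol, with 124 such windows. The windows of 3 lower genes (ZNF736, ZNF550 and ZNF569) and of 2 higher genes (ZNF844 and ZNF215) are shown because their genes differed in step with many other members or against them, and they were chosen after the values had been seen. They run 5′ to 3′ on the gene's strand, with every CG dinucleotide in capitals. The regions are chr7:64313711-64314010 (plus strand, ZNF736), chr19:57559814-57560113 (minus strand, ZNF550), chr19:37467395-37467694 (minus strand, ZNF569), chr19:12064481-12064780 (plus strand, ZNF844) and chr11:6926176-6926475 (plus strand, ZNF215, the first of 2 windows of that gene).
ZNF736: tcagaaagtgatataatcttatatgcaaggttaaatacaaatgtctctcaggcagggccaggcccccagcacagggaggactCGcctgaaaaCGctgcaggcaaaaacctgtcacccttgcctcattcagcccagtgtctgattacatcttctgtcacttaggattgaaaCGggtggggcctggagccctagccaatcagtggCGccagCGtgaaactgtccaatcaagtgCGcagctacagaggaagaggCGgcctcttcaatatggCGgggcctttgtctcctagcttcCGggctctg
ZNF550: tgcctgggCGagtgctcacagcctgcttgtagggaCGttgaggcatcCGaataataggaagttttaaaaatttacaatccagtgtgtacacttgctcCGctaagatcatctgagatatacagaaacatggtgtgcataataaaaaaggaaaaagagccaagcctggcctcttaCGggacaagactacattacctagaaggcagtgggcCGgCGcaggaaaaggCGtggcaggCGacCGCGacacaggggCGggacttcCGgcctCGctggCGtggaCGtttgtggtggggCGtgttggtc
ZNF569: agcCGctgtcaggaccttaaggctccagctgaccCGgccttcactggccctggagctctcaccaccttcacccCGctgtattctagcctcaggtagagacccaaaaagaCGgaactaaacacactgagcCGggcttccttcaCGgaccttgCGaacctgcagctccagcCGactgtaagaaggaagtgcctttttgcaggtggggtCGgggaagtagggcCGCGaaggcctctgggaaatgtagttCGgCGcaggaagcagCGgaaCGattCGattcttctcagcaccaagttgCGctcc
ZNF844: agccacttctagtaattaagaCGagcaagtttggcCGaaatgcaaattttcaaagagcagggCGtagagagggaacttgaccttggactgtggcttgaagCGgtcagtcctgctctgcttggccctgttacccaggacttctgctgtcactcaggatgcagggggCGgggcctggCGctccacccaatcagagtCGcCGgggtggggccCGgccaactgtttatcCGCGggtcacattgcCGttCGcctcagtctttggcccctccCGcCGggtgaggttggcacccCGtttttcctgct
ZNF215: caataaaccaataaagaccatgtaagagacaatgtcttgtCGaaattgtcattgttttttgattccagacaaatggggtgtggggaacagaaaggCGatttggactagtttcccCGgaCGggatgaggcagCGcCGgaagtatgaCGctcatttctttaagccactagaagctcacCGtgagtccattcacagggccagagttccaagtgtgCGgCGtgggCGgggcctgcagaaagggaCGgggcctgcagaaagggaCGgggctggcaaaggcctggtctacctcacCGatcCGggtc
The CG count was 9 in the ZNF736 window, 17 in each of the ZNF550 and ZNF569 windows, 16 in the ZNF844 window and 15 in the ZNF215 window. The median was 20 over all member windows, 20 over 2541 windows of other genes of the table and 14 over all 35116 RefSeq windows. The median GC content was 59.2% for the members, 63% for other genes of the table and 58.7% for all. CCAAT, on either strand, was found in 46.8% of member windows, 30.7% of windows of other table genes and 34.6% of all windows. GGGCGG, on either strand, was found in 54.0% of member windows, 57.8% of windows of other table genes and 45.0% of all. TATAAA, on either strand, was found in 4.84% of member windows, 9.09% of windows of other table genes and 11.5% of all. In the windows printed, CCAAT was present for ZNF736, ZNF844 and ZNF215, and GGGCGG for ZNF550, ZNF844 and ZNF215. A match to these letters is not evidence of a bound factor, and both lower and higher genes held both kinds of motif.

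In R-Exo against S-Exo cells the members differed in the same direction. Of 73 compared, 28 (38.4%) were lower, against 21.2% of the 2154 genes of the table that were compared. Only 2 (2.74%), ZNF215 and ZNF844, were higher, against 23.2% of the table. The median difference was -0.84 for the members and 0.21 for the table, on log2(FPKM + 1). Relative to that table median, 39 of the 73 members were lower, against 31.5% of the table, and ZNF215 alone was higher, against 15.4%. The comparison shares no library with resistant against parental, but R-Exo lay as close to resistant across the 106 genes (r = 0.958) as S-Exo did to parental (r = 0.967), so it is not independent evidence of direction. Of 67 members compared in both, 19 (28.4%) were lower in both, against 13.9% of 1986 genes of the table, and 2 (2.99%) were higher in both, against 20.3%. Members on either side of the limit were ZNF844, at 1.01 on log2(FPKM + 1), just inside, and ZNF671, with 0.0344 FPKM in R-Exo against 1.07 FPKM in S-Exo cells, just outside.

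ZNF726 had the lowest difference in R-Exo against S-Exo cells, -2.21 on log2(FPKM + 1), followed by ZNF91 at -2.12 and ZNF257 at -1.99. ZNF585B had 0.00811 FPKM in R-Exo and 0.00402 FPKM in resistant cells, against 2.79 FPKM in S-Exo and 2.18 FPKM in parental cells. Its neighbour and near copy ZNF585A had 2.58 FPKM in R-Exo and 1.74 FPKM in resistant cells, against 4.82 FPKM in S-Exo and 3.88 FPKM in parental cells. Of the 50-base stretches of the ZNF585B transcript with the longest protein, 26.2% also occur in transcripts of other genes, most often of ZNF585A. The split of reads between the pair is therefore uncertain. ZNF354A, the human counterpart of the rat kidney repressor Kid1, had 1.11 FPKM in R-Exo and 1.87 FPKM in resistant cells, against 4.85 FPKM in S-Exo and 4.77 FPKM in parental cells. ZNF684 had 0.642 FPKM in R-Exo and 0.888 FPKM in resistant cells, against 3.27 FPKM in S-Exo and 2.84 FPKM in parental cells. Both genes were counted as lower in both comparisons.

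The members counted as lower in 1 main comparison alone were below 0 in the other as well. The 3 lower only in resistant against parental cells were ZNF823, ZNF571 and ZNF527, of which ZNF527 was too low in R-Exo and S-Exo cells to be compared there. ZNF521 was higher in that comparison alone, and lay at 0.96 on log2(FPKM + 1) in R-Exo against S-Exo cells. The 9 lower only in R-Exo against S-Exo cells were ZNF260, ZNF577, ZNF718, ZNF251, ZNF420, ZNF525, ZNF790, ZNF461 and ZNF611, of which ZNF790 and ZNF461 were too low in resistant and parental cells to be compared there. Among them ZNF577 and ZNF260 stood furthest from the diagonal. ZNF577 had 0.876 FPKM in R-Exo and 1.96 FPKM in resistant cells, against 3.25 FPKM in S-Exo and 2.50 FPKM in parental cells. ZNF260 had 2.96 FPKM in R-Exo and 5.04 FPKM in resistant cells, against 7.71 FPKM in S-Exo and 6.10 FPKM in parental cells. In both genes the 4 values kept the common order, and the gap of resistant to parental was smaller than that of R-Exo to S-Exo. ZNF420 (Apak), a KRAB protein that binds p53, had 1.82 FPKM in R-Exo and 2.45 FPKM in resistant cells, against 5.17 FPKM in S-Exo and 5.44 FPKM in parental cells. ZNF718 had 1.36 FPKM in R-Exo and 1.73 FPKM in resistant cells, against 5.07 FPKM in S-Exo and 4.36 FPKM in parental cells. The main comparisons differed in sign for 6 members, ZNF554, ZNF821, ZNF286B, ZNF837, ZNF320 and ZNF395, none of them past the limit. ZNF395, a hypoxia-induced gene whose product has few or no fingers of the C2H2 pattern, had 5.27 FPKM in R-Exo and 3.53 FPKM in resistant cells, against 5.03 FPKM in S-Exo and 5.28 FPKM in parental cells.

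**Figure D3:**
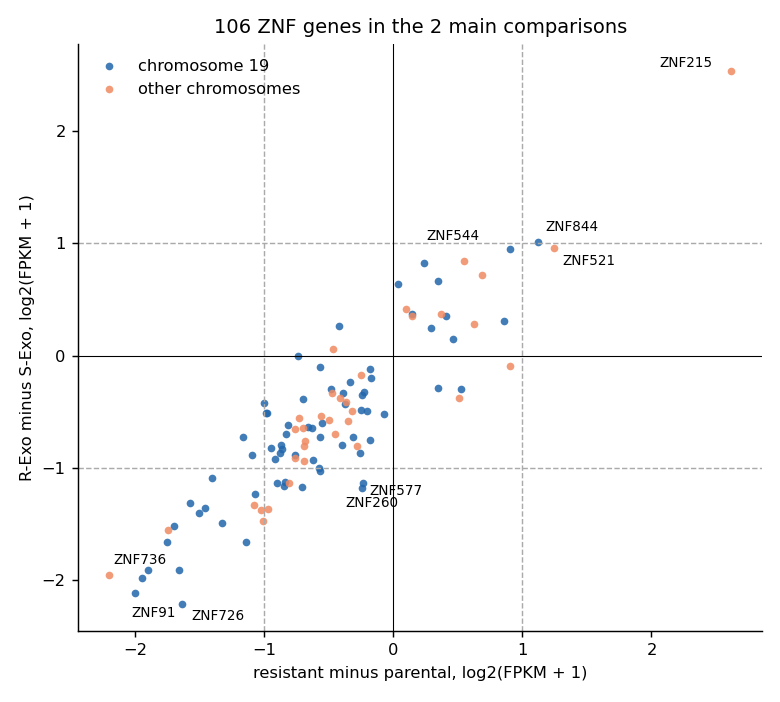
Difference of each of the 106 ZNF genes on log2(FPKM + 1) in resistant minus parental (horizontal) and R-Exo minus S-Exo (vertical), with chromosome 19 genes in blue, genes of other chromosomes in orange and dashed lines at a difference of 1. Most points lay in the lower left part, ZNF215 stood alone at the upper right, and 6 genes had opposite signs.

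Between the like libraries no member passed the limit. In S-Exo against parental cells 71 members were compared, 0 were higher and 0 were lower, against 1.63% and 1.22% of the table, and the median difference was -0.01. In R-Exo against resistant cells 44 were compared, again with 0 higher and 0 lower, against 1.6% and 1.22% of the table, and the median difference was -0.15 for the members and -0.10 for the table. The largest absolute difference was 0.65 in S-Exo against parental cells, for ZNF821, which had 1.41 FPKM in S-Exo and 0.530 FPKM in parental cells. In R-Exo against resistant cells it was 0.73, for ZNF726, whose values are given above. These like pairs are not replicates, but they give a scale for the main comparisons. In 32 of the 67 members compared in both main comparisons, both differences exceeded 0.73 in size (47.8%, against 56.4% of the table). Of these 28 were below 0 (41.8%, against 25.2% of the table) and 4 above (5.97%, against 30.9%), namely ZNF215, ZNF521, ZNF844 and ZNF544. Among the lowest members in S-Exo against parental cells were ZNF132, ZNF527, ZNF468, ZNF784 and ZNF846. ZNF468 was among the most abundant members, with 6.62 FPKM in R-Exo and 7.29 FPKM in resistant cells, against 9.89 FPKM in S-Exo and 15.5 FPKM in parental cells. Its parental value stood apart from the other 3 libraries. The gene model of ZNF468 overlaps that of ZNF320, so the split of reads between them is uncertain. ZNF821, ZNF880, ZNF333, ZNF320 and ZNF235 were highest in S-Exo against parental cells. In R-Exo against resistant cells the highest were ZNF517, ZNF350, ZNF395, ZNF333 and ZNF230, and the lowest were ZNF726, ZNF577, ZNF620, ZNF260 and ZNF429. ZNF350 (ZBRK1), a repressor that binds BRCA1, had 1.13 FPKM in R-Exo and 0.448 FPKM in resistant cells, against 1.29 FPKM in S-Exo and 1.14 FPKM in parental cells, so that the resistant value alone was low.

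Of the members, 71 (67.0%) lie on chromosome 19, against 48.4% of the 514 coding ZNF genes in GENCODE 29 (GRCh38). In resistant against parental cells, 17 of 47 compared members on chromosome 19 were lower (36.2%) and 1 was higher (2.13%). Elsewhere 5 of 23 compared members were lower (21.7%) and 2 were higher (8.70%), against 18.1% and 28% of the table. The lower share elsewhere was thus close to that of the table. In R-Exo against S-Exo cells, 21 of 49 on chromosome 19 (42.9%) and 7 of 24 elsewhere (29.2%) were lower, against 21.2% of the table. The other chromosome 19 genes of the table, counted without any zinc finger symbol and so without the 10 left-out genes, were more evenly split in resistant against parental cells. In resistant against parental cells 19 of 86 compared were higher and 19 lower, and in R-Exo against S-Exo cells 13 of 88 were higher and 22 lower. Off chromosome 19 the lower members of resistant against parental cells were ZNF736, ZNF695, ZNF32, ZNF684 and ZNF354A. ZNF32, on chromosome 10, had 3.14 FPKM in R-Exo and 3.6 FPKM in resistant cells, against 9.38 FPKM in S-Exo and 8.71 FPKM in parental cells.

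Along chromosome 19 most members fell into 6 runs of 5 or more genes with gaps of at most 1 Mb, and the runs differed from each other. ZNF554, ZNF846, ZNF333, ZNF599, ZNF780B and ZNF784 each stood alone outside these runs. Of these lone members, ZNF599 and ZNF780B had both R-Exo and resistant values below both others. ZNF846 and ZNF784 had both above, and ZNF554 and ZNF333 had neither order. The run from ZNF429 to ZNF726 (chr19:21496682-23945159), which includes ZNF91 and ZNF257, held 10 members of 18 annotated coding ZNF genes. Their FPKM summed to 5.31 in R-Exo and 7.76 in resistant cells, against 33.5 in S-Exo and 34.5 in parental cells. In all 10 both the R-Exo and resistant values lay below both others. The run from ZNF260 to ZNF607 (chr19:36510695-37719790) held 15 members of 22 annotated and summed to 12.2 FPKM in R-Exo and 14.7 FPKM in resistant cells, against 42.1 FPKM in S-Exo and 39.6 FPKM in parental cells. All 15 had the same order, and 6 were counted as lower in resistant against parental cells and 8 in R-Exo against S-Exo cells. The run from ZNF577 to ZNF331 (chr19:51804816-53580269) held 13 members of 39 annotated and summed to 19.1 FPKM in R-Exo and 21.9 FPKM in resistant cells, against 37.7 FPKM in S-Exo and 38.8 FPKM in parental cells. The run at the end of the chromosome, from ZNF264 to ZNF132 (chr19:57191500-58440222), held 15 members of 40 annotated. Its sum was 25.2 FPKM in R-Exo and 28.0 FPKM in resistant cells, against 23.3 FPKM in S-Exo and 25.3 FPKM in parental cells. There 10 members had both R-Exo and resistant values below the others and 3 (ZNF460, ZNF544 and ZNF497) above. Without ZNF544 the sum was 7.85 FPKM in R-Exo and 11.1 FPKM in resistant cells, against 14.9 FPKM in S-Exo and 16.7 FPKM in parental cells, so the order of that run's sums rested on ZNF544. ZNF304, a KRAB gene of that run, had 1.85 FPKM in R-Exo and 1.88 FPKM in resistant cells, against 2.72 FPKM in S-Exo and 3.67 FPKM in parental cells. ZNF550, at 0 or close to it in R-Exo and resistant cells, lies in the same run, so neighbours there did not share a direction. The run from ZNF823 to ZNF709 (chr19:11721265-12513854) held 7 members of 21 annotated and summed to 4.58 FPKM in R-Exo and 4.74 FPKM in resistant cells, against 10.5 FPKM in S-Exo and 10.8 FPKM in parental cells. It held the higher ZNF844 beside 6 members of the lower order. The run from ZNF155 to ZNF235 (chr19:43967862-44305046) held 5 members of 12 annotated, at low levels that summed to 2.08 FPKM in R-Exo and 1.92 FPKM in resistant cells, against 4.57 FPKM in S-Exo and 4.50 FPKM in parental cells. How many copies of these regions the cells carry was not measured.

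**Figure D4:**
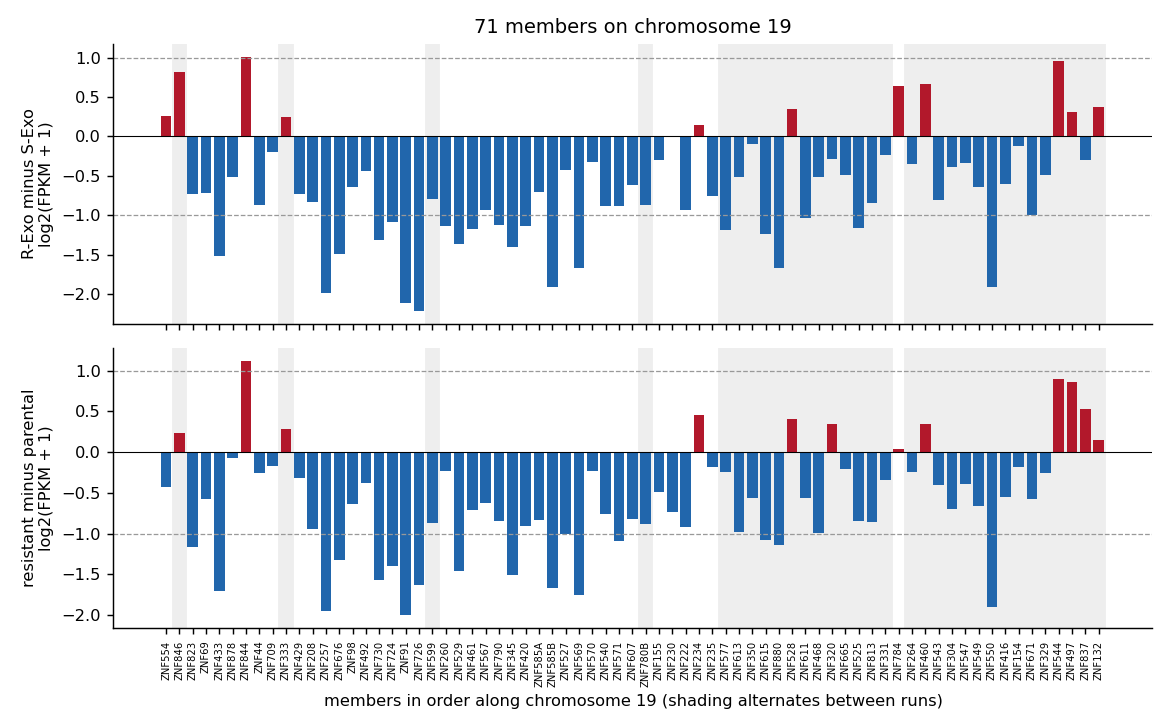
Difference on log2(FPKM + 1) of the 71 chromosome 19 members in their order along the chromosome, for R-Exo minus S-Exo (top) and resistant minus parental (bottom), with shading that alternates between runs. From ZNF429 to ZNF607 every bar is at or below 0 in both panels, and the bars above 0 lie to either side of that stretch.

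**Figure D5:**
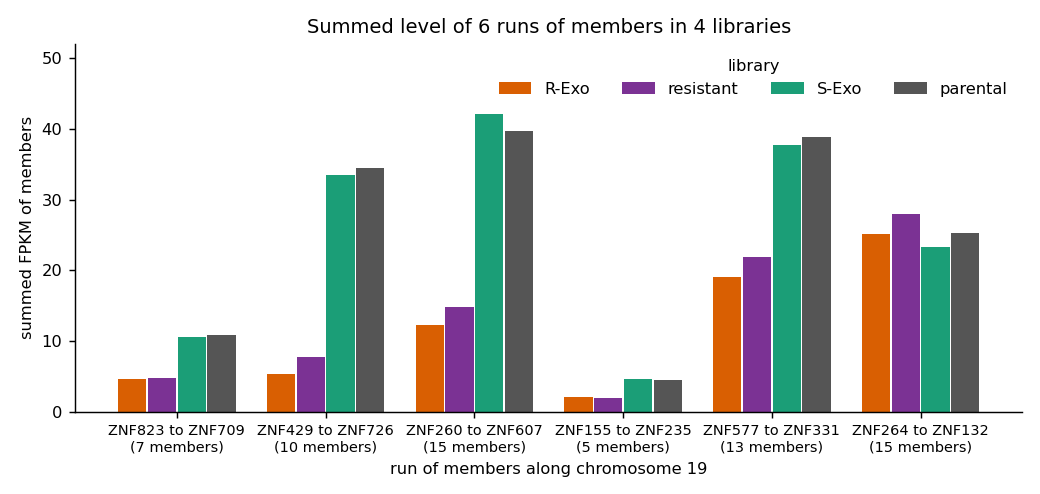
Summed FPKM of the members of each of the 6 chromosome 19 runs in the 4 libraries. The sum of the ZNF429 to ZNF726 run was 7.76 in resistant against 34.5 in parental cells, while that of the last run was 28.0 in resistant against 25.3 in parental cells with ZNF544, and 11.1 against 16.7 without it.

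Features of the encoded proteins were counted beside those of all coding ZNF genes, which share the symbol on which the choice rested. In translated coding sequences of GENCODE 29, a KRAB sequence pattern was found for 77 members (72.6%), against 59.3% of 513 translated coding ZNF genes. The pattern misses some KRAB genes and isoforms, so these are minimum shares. In resistant against parental cells 18 of 53 compared members with the pattern (34.0%) were lower, against 18.1% of the table. Without it 4 of 17 (23.5%) were lower, nearer the share of the table. In R-Exo against S-Exo cells 21 of 53 with it (39.6%) and 7 of 20 without it (35%) were lower, against 21.2% of the table. Lower members occurred in both kinds, but few members without the pattern were compared. The median number of C2H2 fingers was 12 in the members, 11 in all coding ZNF genes and 14 in the 19 members lower in both comparisons, over a range of 0 to 36. ZNF91 had 32 fingers, ZNF215 had 4 and ZNF844 had 6. ZNF521 had 27 fingers and no KRAB pattern. The 4 members with 2 or fewer fingers were ZNF487, ZNF862, ZNF670-ZNF695 and ZNF395. ZNF670-ZNF695 is a readthrough of neighbouring genes and shares sequence with ZNF695, so its reads cannot be assigned with certainty. In 11 members at least 25% of the 50-base stretches of the transcript with the longest protein also occur under another gene identifier. For ZNF883 the most frequent match was an identifier with the same symbol. The median member had 1.06%. The models of 16 members overlap another gene of the table, and without them 17 of 60 members were lower and 3 higher in resistant against parental cells, and 21 of 62 lower and 2 higher in R-Exo against S-Exo cells.

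Members with little RNA everywhere mostly had the lower order too, but at such levels the step that 1 read adds is not known. The order was not counted for the other low genes of the table, so the counts given next have no matching background. Under 1 FPKM in all 4 libraries lay 30 members, of which 23 had both R-Exo and resistant values below both others and 4 above. Among them ZNF331, an imprinted gene, had 0.0198 FPKM in R-Exo and was listed at 0 in resistant cells, against 0.203 FPKM in S-Exo and 0.262 FPKM in parental cells. ZNF658, known for a role in the response to zinc, had 0.222 FPKM in R-Exo and 0.311 FPKM in resistant cells, against 0.374 FPKM in S-Exo and 0.556 FPKM in parental cells. ZNF462 was listed at 0 in S-Exo and parental cells and had 0.294 FPKM in R-Exo and 0.295 FPKM in resistant cells. Among the members with the highest means, ZNF621 had 5.87 FPKM in R-Exo and 6.02 FPKM in resistant cells, against 11.9 FPKM in S-Exo and 10.9 FPKM in parental cells. ZNF320 had 5.83 FPKM in R-Exo and 6.78 FPKM in resistant cells, against 7.35 FPKM in S-Exo and 5.11 FPKM in parental cells, with no common order. ZNF197, which binds the tumour suppressor VHL, had 2.43 FPKM in R-Exo and 2.68 FPKM in resistant cells, against 4.80 FPKM in S-Exo and 4.91 FPKM in parental cells.

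The partners of the KRAB domain were almost all outside the table. Of 40 symbols of co-repressor and silencing genes looked for, 1 was listed, CHD3, a remodeller of the NuRD complex. CHD3 had 10.4 FPKM in R-Exo and 12.9 FPKM in resistant cells, against 6.33 FPKM in S-Exo and 5.62 FPKM in parental cells. It was counted as higher in resistant against parental cells (1.07 on log2(FPKM + 1)) and not in R-Exo against S-Exo cells (0.64). The levels of the other genes looked for were not analysed here. Of 22 listed genes with other zinc finger symbols 11 were compared in each comparison. In resistant against parental cells 3 of these were higher (PRDM9, SP110 and SP6) and 2 lower (ZFP69 and ZFP82). These shares, 27.3% and 18.2%, were close to the 28% and 18.1% of the table. In R-Exo against S-Exo cells 3 were higher (PRDM9, SP6 and ZSCAN21) and 1 lower (ZFP82). These were 27.3% and 9.09%, against 23.2% and 21.2% of the table. SP110 entered that list by its symbol alone. Their median difference was 0.56 in resistant against parental and 0.63 in R-Exo against S-Exo cells, on log2(FPKM + 1). In the 10 cluster genes left out of the 106, 9 of 9 compared were lower in resistant against parental cells and 9 of 10 in R-Exo against S-Exo cells, with median differences of -2.06 and -1.73.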

How the data were processed

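The authors deposited 1 table with an FPKM column per library; its name gives this unit and calls the genes differentially expressed. RNA (1 µg, poly-A) went into NEBNext Ultra libraries, per the labels' protocols. The submitters' processing notes list TopHat2, Picard, GATK and SAMtools 0.1.18 with no roles, and genome build, annotation and counter were not given in the sources used here. Differences were computed with Python 3.11.15, pandas 2.3.3 and numpy 2.4.6 by code tested on simulated data, and a pseudocount of 1 understates those of low genes. No step of whole reads could be read (195 genes above 0 and under 0.15 FPKM in S-Exo and parental cells gave 188 distinct log2 ratios at 3 decimals), so no interval was computed.

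All 106 genes were matched to GENCODE 29 by identifier, with the same symbol, as protein-coding. Fingers were counted in its translated coding sequences as 2 cysteines with 2 to 4 residues between them, 12 residues, and 2 histidines with 3 to 5 between them, a source chosen after the files had been seen. Named are the members higher by 1 or more, the 15 lowest, those listed at 0 in a library and at 1 FPKM or more in the other, the 5 highest and 5 lowest of the like pairs, the 5 highest means and those nearest the limit. Further names were chosen after their values had been seen. Some marker results are not reported here. The members and lists were chosen with earlier results of these data known. Alternatives tried were a pseudocount of 0.1, all genes, those reaching 5 FPKM, re-scaling to the table's median, quantile normalization, parental cells as the control of R-Exo, and leaving out overlapping gene models.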

Additional observations from a re-analysis of the deposited data

How the results depend on the processing

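No named gene counted past the limit changed direction. Of the settings, only quantile normalization and the change of control could have reversed one. The others keep the sign of a difference of 1 or more. With a pseudocount of 0.1, 6 members were higher and 38 lower of 70 in resistant against parental, against 42.2% and 28.3% of the table. In R-Exo against S-Exo cells 7 were higher and 45 lower of 73, against 36% and 35.2% of the table. In S-Exo against parental cells 1 was higher and 2 lower, against 4.7% and 2.61% of the table. In R-Exo against resistant cells 1 was higher and 3 lower, against 3.67% and 4.84% of the table. This pseudocount thus raised the shares of the table as well. The member medians of the first 2 comparisons were -1.09 and -1.41. With a minimum of 5 FPKM, 1 was higher and 7 lower of 18 in resistant against parental cells, against 37.3% and 24.8% of the table. In R-Exo against S-Exo cells 1 was higher and 9 lower of 17, against 31.3% and 30.3% of the table, with a member median of -1.13. The median of S-Exo against parental cells was then 0.083 in place of -0.01. Re-scaled to a table median of 0, 1 was higher and 41 lower in resistant against parental cells (median -1.17) and 1 higher in R-Exo against S-Exo cells (median -1.05). Quantile normalization left 1 higher in R-Exo against S-Exo cells, against 20.6% of the table, and gave a median of -0.91 in resistant against parental cells. With no filter the median was -0.64 in R-Exo against S-Exo and -0.022 in R-Exo against resistant cells. Among the named genes, 709 values kept their side of the limit and 36 did not. The settings that changed only the filter or left out overlapping models do not alter a gene's difference. Their share of the 709 could not have moved, so the tally is no measure of stability. Each group has 1 library, so none could be left out. No paired analysis was possible because each group holds 1 library. Depth is unknown, and it limits the genes under 1 FPKM most.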
